A study of Homo sapiens with 6 samples.

Results

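The genes described here encode the nuclear-encoded subunits of the oxidative phosphorylation (OXPHOS) complexes, and their RNA levels were compared between WT and NUAK2-CR U251 cells. Members were taken by gene symbol: NDUFA, NDUFB, NDUFC, NDUFS and NDUFV genes, SDHA to SDHD, UQCR genes and CYC1, numbered COX subunit genes and ATP5F, ATP5M and ATP5P genes, with the NDUFAF assembly factors left out. This gave 86 of the 28395 genes in the count table, namely 37 of complex I, 4 of complex II, 10 of complex III, 16 of complex IV and 19 of complex V. NDUFA4 and NDUFA4L2 were placed with complex IV, since NDUFA4 is a subunit of cytochrome c oxidase. The symbol rule passes over COX4I1, COX4I2, COX7A2L, NDUFAB1, ATP5IF1 and CYCS, which are given apart.

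U251 is a line grown from a human glioblastoma, and NUAK2 is a serine/threonine kinase of the AMPK-related family. The 3 WT libraries came from the unedited line, and the 3 NUAK2-CR libraries from cells that had received Cas9 and 1 NUAK2 guide from a pair of lentiviral vectors carrying GFP and mCherry, after which cells positive for both colours were sorted into clones. The labels do not name the clone, do not say whether WT cells carried a control vector, and do not say that the replicates were separate cultures, so that p-values here measure the spread between libraries, which may be technical, and an effect of NUAK2 cannot be told apart from other differences between a clone and its parent line. Polyadenylated RNA was sequenced in bulk, so that a lower level of a gene in fewer cells and less RNA of it per cell cannot be told apart.

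Complexes I to IV of the inner mitochondrial membrane form the respiratory chain: complexes I and II take electrons from NADH and succinate, complex III passes them to cytochrome c, and complex IV hands them to oxygen. Complexes I, III and IV pump protons, and complex V, the ATP synthase, uses the resulting gradient to make ATP. Complexes I, III, IV and V are mosaics of subunits from nuclear DNA, made in the cytosol and imported, and of subunits from mitochondrial DNA, made inside the organelle, whereas complex II is wholly nuclear-encoded.

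Counts per library summed to between 35310946 and 55574081 in WT and between 29648445 and 33776712 in NUAK2-CR, and members took 0.685% to 0.746% of them in WT and 0.532% to 0.578% in NUAK2-CR. Levels are given as CPM, the usual scaling of counts to a fixed library total, with library sizes adjusted by the TMM method, and they were compared between groups within a gene, not between genes. NUAK2 itself was at 51.3, 38.8 and 42.1 CPM in WT replicates 1, 2 and 3 and at 21.3, 25.6 and 22.6 CPM in NUAK2-CR, which is a log2 change of -0.93 (SE 0.11, edgeR quasi-likelihood test, adjusted p = 1.80e-05), so its transcript was still counted in the edited cells. Of 12 glioblastoma or astroglial markers, 8 were well detected in all 6 libraries, while OLIG2 had no count and AQP4 was near 0. These markers moved with the groups: 7 of the 10 tested fell, among them GFAP (log2 fold change -2.56), NES (-1.56), CD44 (-1.55), SOX2 (-1.11), FABP7 (-0.65) and VIM (-0.49), EGFR rose (0.70), and their sum went from between 8994 and 9987 CPM in WT to between 4062 and 4262 CPM in NUAK2-CR. Of the immune markers, PTPRC and AIF1 were at or near 0, and CD68 fell from between 17.1 and 19.5 CPM to between 5.35 and 6.49 CPM (-1.59). The endothelial genes PECAM1 and VWF were higher, with a summed level of the 3 endothelial markers of at most 2.40 CPM in any library, and KRT18 and SYT1 were higher and MBP lower. The part of these shifts in the members' values was not tested. WT replicate 1 stood apart. Its counts differed from those of WT replicates 2 and 3 with a chi-square per degree of freedom of 58.1 and 36.8, against 13.3 between those other libraries, and the tested members had a median log2 CPM 0.15 below the mean of its partners (-0.15), against 0.00 for all tested genes. On the same measure WT replicate 3 was as far from its partners in the other direction (0.15). Results are also given without WT replicate 1, and the number of members called lower also without each other single library.

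Transcripts of OXPHOS subunits were mostly lower in NUAK2-CR cells, and the decrease was modest and uneven. Of the 76 members with enough counts to test, 42 fell, 2 rose (NDUFB6 and NDUFA4L2) and 32 did not pass an adjusted p of 0.05 (edgeR quasi-likelihood test with Benjamini-Hochberg adjustment over 14873 genes). Among all genes tested, 28.2% were called lower and 26.3% higher, 54.5% together. The share of tested members called lower was 55.3%, and the share called higher 2.63%. Tested members had a median log2 fold change of -0.27, against -0.01 over all tested genes, and 63 of the 76 had a negative value, as 50.8% of all genes tested did. None of the members passed the study's threshold, a log2 fold change above 2 in size, which 4.72% of the genes tested did. In complexes II, III and V no member rose with edgeR, DESeq2 or an unadjusted p under 0.05. A decrease of more than 0.5 on the log2 scale was called for 17 of the 76 tested members. Among all genes tested it was called for 2492 of 14873 (16.8%).

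Summed over the 86 members, the level was 6790, 6910 and 7542 CPM in WT replicates 1, 2 and 3 and 5336, 5802 and 5563 CPM in NUAK2-CR, a ratio of the means of 0.786. The lowest WT library lay above the highest NUAK2-CR library. Gene by gene, every NUAK2-CR library lay below every WT library for 44 tested members, a pattern held by 31.5% of all genes tested, and above for 2, against 29.8%; the groups overlapped for the other 30. Read by library, the map of single members shows which genes made up the decrease.

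**Figure D1:**
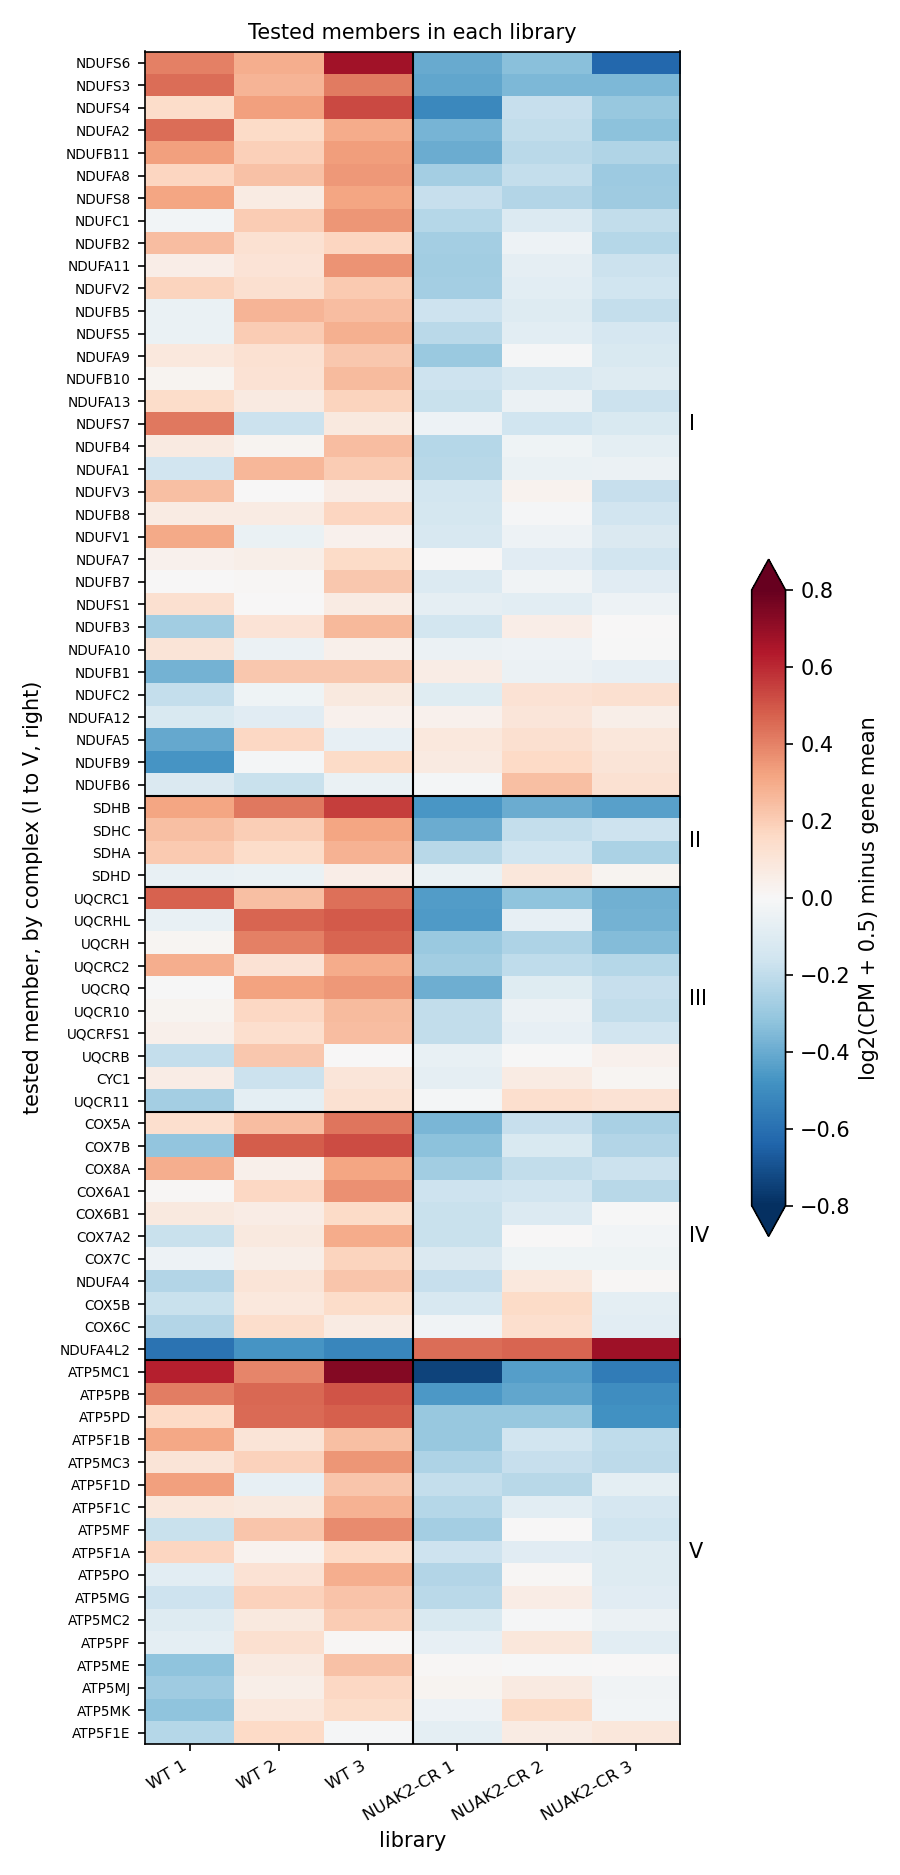
Each row is 1 of 75 tested members, grouped by complex and ordered by fold change, and each column 1 library; colour is log2(CPM + 0.5) minus the mean of the gene over the 6 libraries, with values beyond 0.8 in either direction drawn in the end colour. NDUFS6, SDHB, UQCRC1, ATP5MC1 and ATP5PB were high in all 3 WT libraries and low in all 3 NUAK2-CR libraries, and NDUFA4L2 had the opposite pattern.

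Most members are short genes of high expression. Among the 9744 genes with a mean of at least 10 CPM, 32.2% were called lower and 29.4% higher, and of the 73 members above that level 41 were lower and 1 was higher. The annotated transcripts of tested members had a median length of 757 bases, against 3238 bases over all tested genes, and the fitted trend of fold change on length stood at -0.11 for a transcript of 500 bases. After subtraction of that trend the members' median was -0.19. Without WT replicate 1, 53 members were lower and 2 higher, and the median was -0.31. In that fit 28.5% of all tested genes were lower and 27.7% higher. The number of members lower was 37 without WT replicate 3 and 33 without NUAK2-CR replicate 1. Without any other single library it was 39 to 44.

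In complex I, which oxidises NADH, 19 of 34 tested members fell, 1 rose and 14 were not called, with a median log2 fold change of -0.26. NDUFS6 (gene 4726, chr5:1801407-1816048), an accessory subunit that binds zinc, was at 90.7, 83.9 and 109 CPM in WT and at 51.6, 54.2 and 44.1 CPM in NUAK2-CR. Its groups were well apart, at 94.6 ± 13.1 CPM in WT and 49.98 ± 5.23 CPM in NUAK2-CR (SD, n = 3 each), a log2 fold change of -0.92 (SE 0.10, edgeR adjusted p = 1.17e-05). NDUFS3 (gene 4722, chr11:47579074-47584562), a core subunit of the arm that faces the matrix, fell from 67.6, 59.9 and 66.1 CPM to 36.9, 38.4 and 38.5 CPM, or by 0.77 on the log2 scale (SE 0.07, edgeR adjusted p = 2.61e-06).

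Among the core subunits of the same arm, NDUFV1 and NDUFS1 were not called. NDUFV1, which binds the FMN cofactor that accepts electrons from NADH, was at 143, 111 and 119 CPM in WT and at 106, 112 and 107 CPM in NUAK2-CR. Its groups overlapped, and the log2 fold change of -0.20 (SE 0.09) was not called (edgeR adjusted p = 0.0774). NDUFS1, the large iron-sulphur subunit, lay between 118 and 129 CPM in WT and between 112 and 115 CPM in NUAK2-CR, without overlap and without a call (log2 fold change -0.13, SE 0.06, edgeR adjusted p = 0.106). Of the 7 core subunits encoded in the nucleus, 4 fell and 3 were not called. NDUFS8 fell by 0.48 and NDUFV2 by 0.34 on the log2 scale. NDUFS7 was at 53.3 CPM in WT replicate 1 and at 35.1 to 41.9 CPM in the other two WT libraries, against 35.4 to 38.5 CPM in NUAK2-CR.

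Among the accessory subunits of complex I, which surround the core, 15 of 27 tested genes fell. NDUFS4 decreased by 0.68, NDUFA2 by 0.61, NDUFB11 by 0.57 and NDUFA8 by 0.51 on the log2 scale, and none of these had overlapping groups. The remaining decreases ran from -0.37 for NDUFC1 to -0.20 for NDUFB8. NDUFB6, an accessory subunit of the membrane arm, was the one member of complex I to rise, from 35.3, 33.8 and 37.0 CPM to 37.9, 45.3 and 41.8 CPM (log2 fold change 0.24, SE 0.08, edgeR adjusted p = 0.0296). Its lowest NUAK2-CR library exceeded its highest WT library by less than 1 CPM, and the call was lost when NUAK2-CR replicate 2 or 3 was left out. Its neighbours in the genome had a median log2 fold change of 0.28, slightly above its own. NDUFB6 also overlaps SMIM27, and counting ignored strand, so part of its count is uncertain. NDUFA5, NDUFA12, NDUFB9 and NDUFC2 had positive fold changes, between 0.10 and 0.21, that were not called. NDUFA3, NDUFA6 and the readthrough gene NDUFC2-KCTD14 were not tested, with at most 0.271 CPM in any library. Since NDUFA3 and NDUFA6 encode constitutive subunits, their few counts are not read as a lack of expression.

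In complex II, the succinate dehydrogenase that also belongs to the tricarboxylic acid (TCA) cycle, 3 of 4 members fell, with a median log2 fold change of -0.46. SDHB (gene 6390, chr1:17018722-17054032), the iron-sulphur subunit, was at 126, 136 and 149 CPM in WT and at 73.2, 76.9 and 74.7 CPM in NUAK2-CR. The means were 137 ± 11.3 and 74.9 ± 1.89 CPM (SD, n = 3 each), without overlap, and the log2 fold change was -0.87 (SE 0.07, edgeR adjusted p = 9.96e-07). SDHA, the flavoprotein that oxidises succinate, fell from 134, 128 and 140 CPM to 98.9, 104 and 97.0 CPM (log2 fold change -0.42, SE 0.07, edgeR adjusted p = 0.000171).

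SDHC and SDHD form the membrane anchor of complex II together, and their values differed. SDHC was at 99.4, 96.1 and 105 CPM in WT and at 63.5, 73.4 and 74.9 CPM in NUAK2-CR, and its log2 fold change was -0.50 (SE 0.08, edgeR adjusted p = 0.000144). SDHD was at 65.4, 65.6 and 70.6 CPM in WT and at 65.6, 72.7 and 69.2 CPM in NUAK2-CR. Its groups overlapped almost fully, and its log2 fold change was 0.04 (SE 0.07, edgeR adjusted p = 0.640). The difference between SDHC and SDHD was not tested. SDHC lies in a part of chromosome 1 whose tested genes had a median of -0.48, close to its own fold change, whereas the median around SDHD on chromosome 11 was -0.02. Pseudogene copies of SDHA exist elsewhere in the genome, so that reads shared with them make its count less certain.

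In complex III, the cytochrome bc1 complex, 7 of 10 members fell and none rose, with a median log2 fold change of -0.37. UQCRC1 (gene 7384, chr3:48599002-48609646), a core protein on the matrix side, was at 321, 274 and 314 CPM in WT and at 169, 185 and 177 CPM in NUAK2-CR. All WT libraries were far above all NUAK2-CR libraries, with a log2 fold change of -0.77 (SE 0.08, edgeR adjusted p = 3.46e-06), while the genes around it had a median of 0.09. UQCRC2, the other core protein, fell by 0.48 on the log2 scale. UQCRFS1, the Rieske iron-sulphur protein that takes electrons from ubiquinol, fell less, from between 73.6 and 84.9 CPM to between 62.5 and 68.3 CPM (log2 fold change -0.28, SE 0.07, edgeR adjusted p = 0.00689).

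CYC1, the cytochrome c1 subunit that receives those electrons, had nearly the same mean in both groups. It was at 112, 95.4 and 115 CPM in WT and at 102, 112 and 109 CPM in NUAK2-CR, with a log2 fold change of 0.00 (SE 0.08, edgeR adjusted p = 0.983). CYC1 lies on chromosome 8 amid genes with a median log2 fold change of 0.76, and less that median its value was -0.76. UQCRB and UQCR11, small accessory subunits, were not called either. UQCRH, the hinge protein beside cytochrome c1, fell from 107, 139 and 146 CPM to 85.7, 88.4 and 82.7 CPM, and by 0.61 on the log2 scale (SE 0.10, edgeR adjusted p = 0.000298). UQCRHL, a gene nearly identical to UQCRH, fell by 0.65 from between 6.14 and 9.25 CPM to between 4.57 and 6.11 CPM; since reads may be split between the pair, it is not independent of UQCRH.

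In complex IV, cytochrome c oxidase, 5 of 11 tested members fell, 1 rose and 5 were not called, with a median log2 fold change of -0.14. COX5A, a nuclear-encoded subunit on the matrix side, was at 130, 141 and 160 CPM in WT and at 91.8, 105 and 99.1 CPM in NUAK2-CR. The groups did not overlap, and the log2 fold change was -0.55 (SE 0.08, edgeR adjusted p = 0.000154). COX8A, a small subunit that spans the membrane, fell by 0.44, COX6A1 by 0.37 and COX6B1 by 0.19 on the log2 scale. COX5B, COX6C, COX7A2 and COX7C were not called, with values from -0.14 to 0.01.

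COX7B, a small membrane subunit, was called lower with a value that depended on 1 library. It was at 57.9 CPM in WT replicate 1, against 101 and 104 CPM in WT replicates 2 and 3, and at 57.5, 66.2 and 61.3 CPM in NUAK2-CR. The groups overlapped through that library, and the log2 fold change was -0.50 (SE 0.17, edgeR adjusted p = 0.0240) with it and -0.73 (SE 0.07, edgeR adjusted p = 7.48e-08) without it. Without WT replicate 1, 8 members of complex IV were called lower, and without WT replicate 3 or NUAK2-CR replicate 1, 3 were. NDUFA4 was among the members called lower without WT replicate 1 (log2 fold change -0.18, edgeR adjusted p = 0.0403); with all libraries it was at 187, 237 and 257 CPM in WT and 194, 233 and 222 CPM in NUAK2-CR.

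NDUFA4L2, a paralog of NDUFA4 that is known to be induced by hypoxia-inducible factor, was the member with the largest increase. Its level was 0.389, 0.463 and 0.430 CPM in WT and 1.32, 1.35 and 1.64 CPM in NUAK2-CR, or 22, 18 and 15 counts against 39, 42 and 56 counts. All 3 NUAK2-CR libraries were above all WT libraries, and the log2 fold change was 1.75 (SE 0.33, edgeR adjusted p = 0.000619), but at these counts the size of the change is imprecise. NDUFA4L2 overlaps SHMT2, and the default counting used by the authors does not separate strands, so that reads of the overlap cannot be assigned to one gene. The tissue-restricted paralogs COX6A2, COX7B2 and COX8C had no count in any library, COX7A1 had 2 counts in 1 NUAK2-CR library, and COX6B2 had at most 6 counts in a library. A count of 0 allows up to 3 counts in a library, by counting error only.

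**Figure D2:**
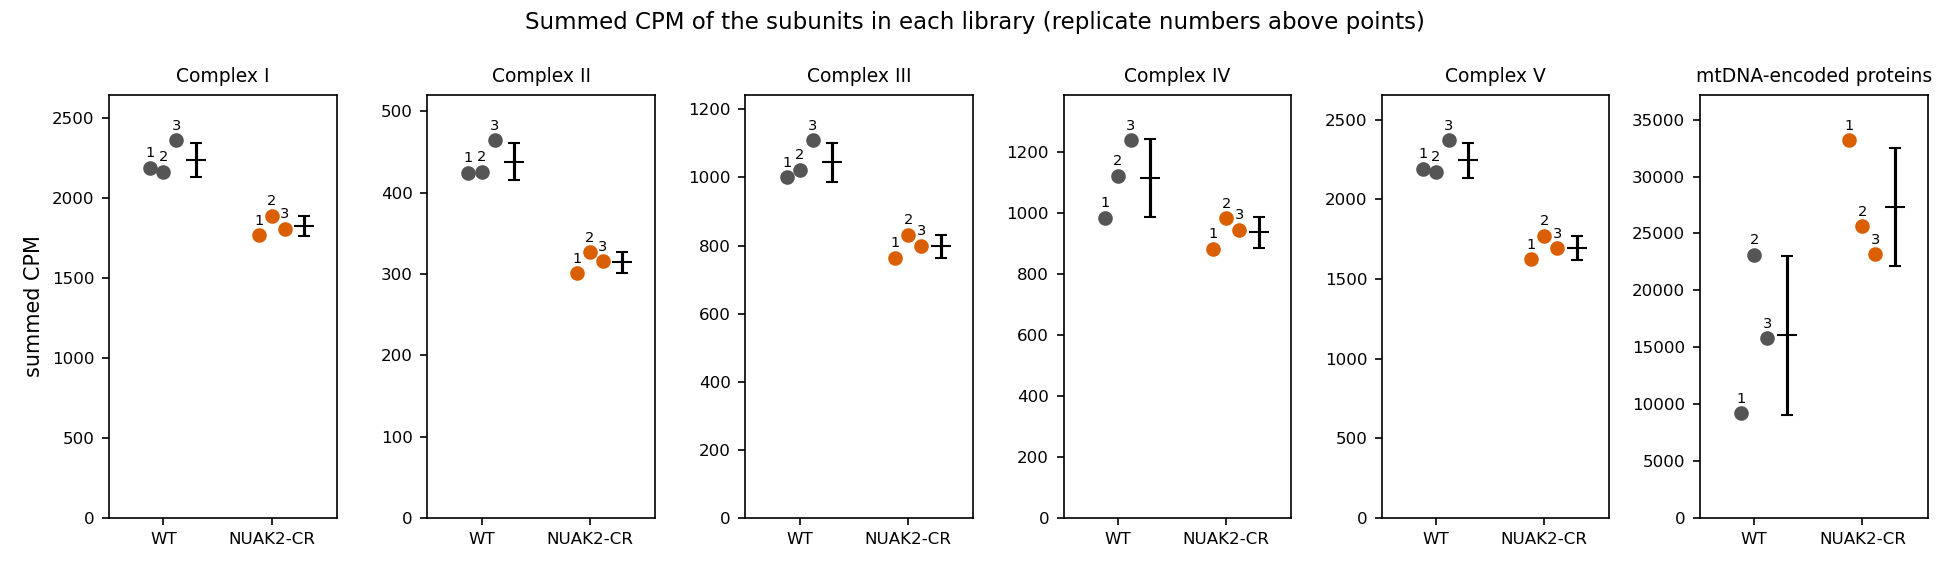
Points are the summed CPM of all members of each complex, and of the 13 proteins encoded by mitochondrial DNA, in each of the 6 libraries, numbered by replicate; the horizontal mark and bar are the mean and SD of 3 libraries, and each vertical axis starts at 0. In complexes I, II, III and V the NUAK2-CR libraries lay below all WT libraries, in complex IV NUAK2-CR replicate 2 (984 CPM) and WT replicate 1 (985 CPM) nearly met, and the mitochondrially encoded sum was higher in NUAK2-CR.

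In complex V, 8 of 17 tested members fell and none rose, with a median log2 fold change of -0.24. In the F1 head, which makes ATP, 4 of 5 subunits fell: ATP5F1B, the catalytic beta subunit, by 0.44, ATP5F1D by 0.34, ATP5F1C by 0.30 and ATP5F1A, the alpha subunit, by 0.24 on the log2 scale. ATP5F1B was at 779, 674 and 744 CPM in WT and at 511, 566 and 547 CPM in NUAK2-CR (edgeR adjusted p = 0.000324). The epsilon gene ATP5F1E had only 0.744 to 1.13 CPM in any library and was not called, and it overlaps 2 other annotated genes.

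The proton-driven ring is built of c subunits, whose mature protein is the same from all of ATP5MC1, ATP5MC2 and ATP5MC3. ATP5MC1 (gene 516, chr17:48892787-48895871) was at 72.7, 62.0 and 78.8 CPM in WT and at 27.99, 34.6 and 31.8 CPM in NUAK2-CR. With means of 71.2 ± 8.52 and 31.4 ± 3.31 CPM (SD, n = 3 each), or 44.2% of WT, this was the largest decrease among tested members (log2 fold change -1.18, SE 0.10, edgeR adjusted p = 1.13e-06). ATP5MC3 fell by 0.43 on the log2 scale, from between 139 and 165 CPM to between 109 and 113 CPM. ATP5MC2 was at 138, 157 and 171 CPM in WT and at 136, 148 and 143 CPM in NUAK2-CR, with a log2 fold change of -0.12 (SE 0.08) that was not called with all libraries (edgeR adjusted p = 0.218) and was called without WT replicate 1 (-0.20, adjusted p = 0.0131).

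In the peripheral stalk, which holds the head still, ATP5PB and ATP5PD fell and ATP5PO and ATP5PF were not called. ATP5PB (gene 515, chr1:111449464-111462773), the b subunit, was at 257, 266 and 275 CPM in WT and at 141, 145 and 137 CPM in NUAK2-CR. The groups lay far apart, and the log2 fold change was -0.92 (SE 0.06, edgeR adjusted p = 1.73e-07). ATP5PD, the d subunit, fell from 97.2, 119 and 122 CPM to 70.7, 70.6 and 62.1 CPM (log2 fold change -0.73, SE 0.09, edgeR adjusted p = 2.92e-05), while ATP5PO was at -0.22 and ATP5PF at -0.04. Without WT replicate 1, ATP5PO was called lower (-0.31, edgeR adjusted p = 0.00217). None of the 5 small membrane subunits ATP5ME, ATP5MF, ATP5MG, ATP5MJ and ATP5MK was called with all libraries, with log2 fold changes between -0.30 and 0.05; DESeq2 called none, and at an unadjusted p under 0.05 ATP5MF was lower. Without WT replicate 1, in which all 5 were at their lowest WT level, ATP5MF (-0.44) and ATP5MG (-0.28) were called lower.

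Across the 5 complexes, the median log2 fold changes lay between -0.46 in complex II and -0.14 in complex IV, and differences between complexes were not tested. Set against other mitochondrial gene lists, the medians of the nuclear-encoded subunits and of the subunits encoded by mitochondrial DNA had opposite signs.

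**Figure D3:**
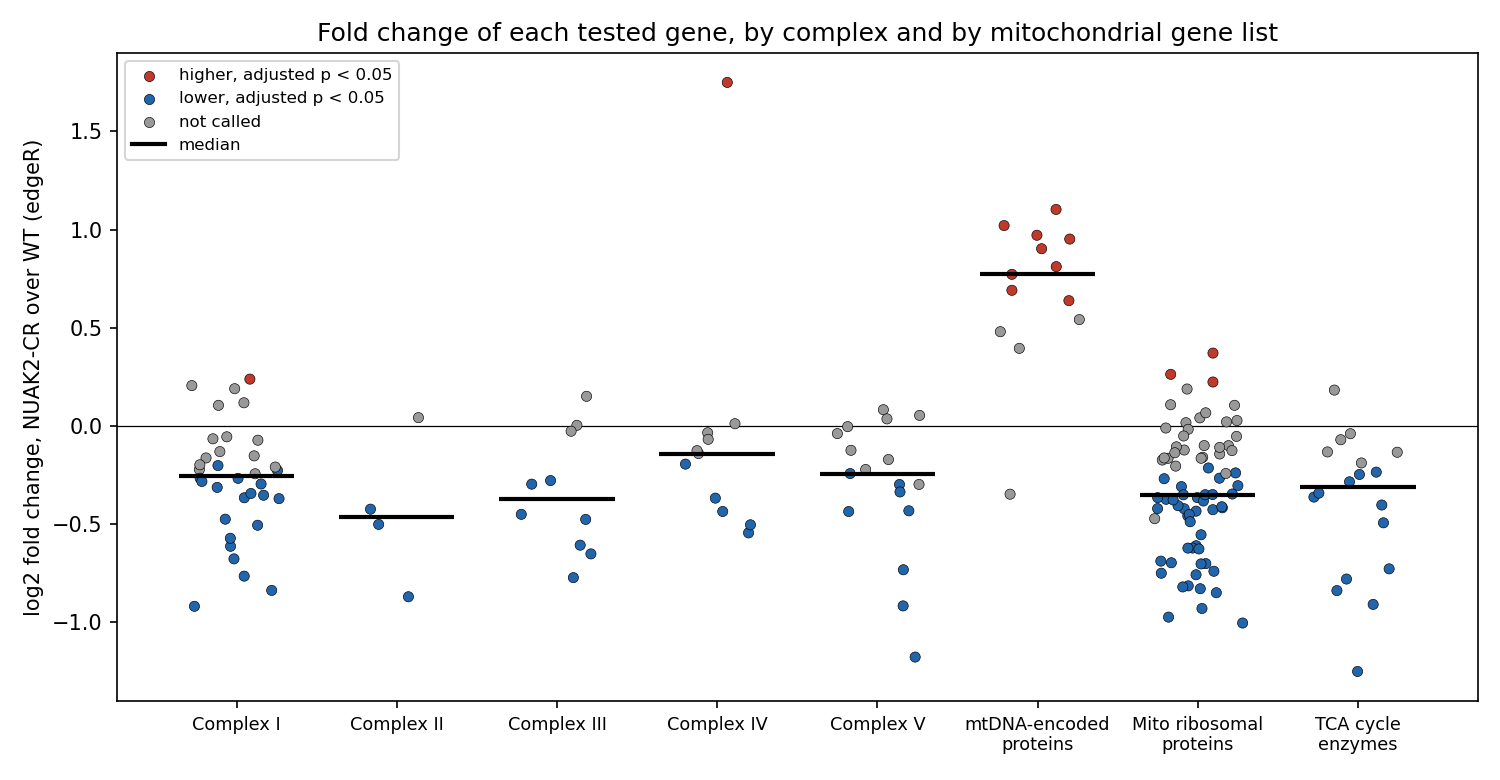
Each point is a tested gene, plotted by its log2 fold change (NUAK2-CR over WT, vertical axis) within the complex or gene list on the horizontal axis; blue marks genes called lower, red genes called higher and grey genes not called at an adjusted p of 0.05, and black bars are medians. The medians of the 5 complexes lay between -0.46 and -0.14, that of mitochondrial ribosomal proteins at -0.35 and that of TCA cycle enzymes at -0.31, and that of the mitochondrially encoded proteins at 0.77.

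Of the 13 proteins encoded by mitochondrial DNA, all of them subunits of complexes I, III, IV and V, 9 rose in NUAK2-CR and 4 were not called, and none fell with edgeR, at an unadjusted p under 0.05 either, or with DESeq2, with a median log2 fold change of 0.77. The share called higher by edgeR was 69.2%, against 26.3% of all genes tested. MT-CO3, of complex IV, was at 1000, 2495 and 1736 CPM in WT and at 4283, 3342 and 2986 CPM in NUAK2-CR (log2 fold change 1.02, SE 0.24). MT-ND6, of complex I, was at 104, 335 and 221 CPM and at 570, 447 and 397 CPM (1.10, SE 0.30, edgeR adjusted p = 0.00728). Since counting ignored strand, reads from the opposite strand of mitochondrial DNA cannot be told apart from those of MT-ND6. MT-ATP8 was not called and had a fold change of -0.35. Its value was imprecise, at -0.62 (SE 0.36) without WT replicate 1.

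Levels of these transcripts varied far more among WT libraries than those of the nuclear members. Their sum was 9205, 23150 and 15780 CPM in WT replicates 1, 2 and 3 and 33190, 25640 and 23180 CPM in NUAK2-CR, so that the highest WT and the lowest NUAK2-CR library nearly met. The ratio of this sum to that of the 86 nuclear members was 1.36, 3.35 and 2.09 in WT and 6.22, 4.42 and 4.17 in NUAK2-CR, without overlap. With DESeq2 only 4 of the 13 were called higher, and leaving out single libraries gave 6 to 13. Without WT replicate 1, whose level was 1.06 lower on the log2 scale than that of its partners (-1.06), 10 were called and the median was 0.57. With the mitochondrially encoded genes taken out of the table before scaling, 41 nuclear members were still lower, all of them among the 42, and 2 were higher.

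Fold changes also differed by position in the genome. The 7 members on chromosome 1, where the median over all tested genes was -0.43, all fell, ATP5PB, SDHB, UQCRHL, UQCRH, SDHC and NDUFS5 among them. The 2 on chromosome 17 (median -0.38), ATP5MC1 and ATP5PD, fell too, and so did 5 of 6 on chromosome 5 (median -0.21) and 2 of 3 on chromosome X (median -0.40). On chromosome 8 (median 0.30), none of the 4 members NDUFB9, UQCRB, CYC1 and COX6C was called by edgeR or DESeq2, and none had an unadjusted p under 0.05. On other chromosomes with a median above 0 the share varied. All fell on chromosomes 3 (3 of 3, median 0.03), 16 (2 of 2, 0.11), 18 (2 of 2, 0.09) and 22 (1 of 1, 0.08). Some fell on chromosomes 10 (2 of 3, 0.08), 19 (5 of 9, 0.14), 12 (3 of 6, 0.13) and 4 (1 of 2, 0.14). So did 3 of 7 on chromosome 11 (0.03), 1 of 4 on chromosome 7 (0.14) and 1 of 5 on chromosome 2 (0.13). None fell of 3 on chromosome 21 (0.19), 2 on chromosome 14 (0.09), 1 on chromosome 20 (0.22) and 1 on chromosome 6 (0.08). The share of all tested genes called lower on each chromosome is not given here, so these small counts have no background beside them.

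Subtracting from each gene the median of the 100 tested genes nearest to it gave a members' median of -0.32, compared with -0.27 before. The fold change of ATP5MC1 became -0.74, that of NDUFS6 -0.81, of SDHB -0.60 and of ATP5PB -0.36. For UQCRC1 the value was -0.86. NDUFS3 was at -0.44. Smaller decreases remained for ATP5PD (-0.31), NDUFB11 (-0.21), UQCRH (-0.17), COX7B (-0.13) and NDUFB5 (-0.10), and NDUFS5 went from -0.30 to 0.15. SDHC was at -0.02, and in complex II as a whole the median changed from -0.46 to -0.17.

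**Figure D4:**
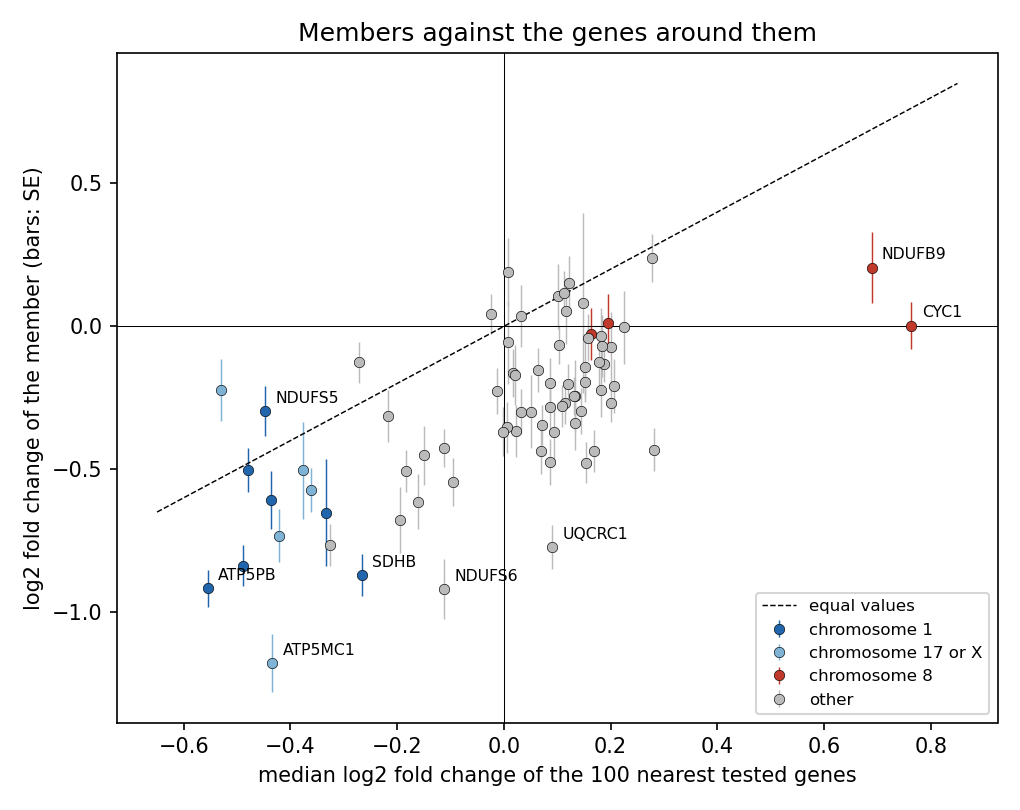
Each point is a tested member, with the median of the 100 nearest tested genes (log2 fold change) on the horizontal axis and its own log2 fold change with its SE on the vertical axis; NDUFA4L2, at 1.75, is left out for scale. Members on chromosome 1 (dark blue) and on chromosomes 17 and X (light blue) had surroundings below 0, members on chromosome 8 (red) had surroundings above 0, and most members lay below the dashed line of equal values.

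Promoters of members are known to hold sites for NRF1, for ETS factors such as GABPA, and for YY1, which coordinate OXPHOS genes. Promoters from RefSeq (GRCh38.p14, 250 bases before to 50 after the gene start for 66 members, another start for 3) were found for 69 of the 86 members, 62 of them tested, and searched on both strands. The NRF1 motif, GCGCA and GCGC with 1 base between them, was present in 24.6% of member promoters, against 6.28% of the 27305 promoters of the table and 11.2% of those of tested genes. For the ETS motif CCGGAAGT the shares were 14.5%, 4.44% and 8.27%, and for the YY1 motif AAGATGGCG 11.6%, 1.85% and 3.70%. GGGCGGG, the SP1 motif, was in 27.5% of member promoters, 32.9% of all and 52.7% of those of tested genes. These shares are descriptions with no test.

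Among tested members with a promoter, NRF1 was found in 9 of 34 promoters of members called lower (26.5%) and in 6 of 28 of the other tested members (21.4%), and ETS in 5 and 5 (14.7% and 17.9%). The promoters below are shown because they carry a motif and belong to members with different values, SDHA (-0.42), UQCRC1 (-0.77) and UQCRH (-0.61) being called lower and SDHD (0.04) not. Capitals mark matches to the NRF1 motif or, as ACTTCCGG on the reverse strand, to the ETS motif. SDHA is at chr5:218070-218369 on the plus strand, SDHD at chr11:112086623-112086922 on the plus strand, UQCRC1 at chr3:48609597-48609896 on the minus strand and UQCRH at chr1:46303448-46303747 on the plus strand.
SDHA: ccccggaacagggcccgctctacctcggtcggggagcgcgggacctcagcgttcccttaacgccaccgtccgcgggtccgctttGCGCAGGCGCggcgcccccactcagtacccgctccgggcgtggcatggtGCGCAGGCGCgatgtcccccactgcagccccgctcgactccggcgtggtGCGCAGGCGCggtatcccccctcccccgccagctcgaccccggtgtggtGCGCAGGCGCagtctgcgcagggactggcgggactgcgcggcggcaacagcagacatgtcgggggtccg
SDHD: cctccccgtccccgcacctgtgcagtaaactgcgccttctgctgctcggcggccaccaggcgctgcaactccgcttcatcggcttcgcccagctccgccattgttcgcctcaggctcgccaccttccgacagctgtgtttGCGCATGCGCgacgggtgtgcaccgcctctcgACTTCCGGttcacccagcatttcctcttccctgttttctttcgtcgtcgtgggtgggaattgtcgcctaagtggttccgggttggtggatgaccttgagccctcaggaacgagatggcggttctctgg
UQCRC1: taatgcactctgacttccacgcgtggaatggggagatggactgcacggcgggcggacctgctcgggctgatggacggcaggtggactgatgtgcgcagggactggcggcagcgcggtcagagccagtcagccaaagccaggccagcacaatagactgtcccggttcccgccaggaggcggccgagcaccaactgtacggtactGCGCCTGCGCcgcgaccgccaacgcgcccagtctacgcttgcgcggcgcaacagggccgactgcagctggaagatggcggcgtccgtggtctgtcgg
UQCRH: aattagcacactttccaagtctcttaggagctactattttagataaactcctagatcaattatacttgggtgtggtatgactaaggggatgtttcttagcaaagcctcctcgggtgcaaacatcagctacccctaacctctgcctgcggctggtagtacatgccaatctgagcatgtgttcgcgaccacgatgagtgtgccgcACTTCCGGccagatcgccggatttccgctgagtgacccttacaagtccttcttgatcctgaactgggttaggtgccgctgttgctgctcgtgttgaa
SDHA held 4 copies of the NRF1 motif, UQCRC1 a single copy, SDHD an NRF1 and an ETS motif, and UQCRH an ETS motif. A match of letters does not show that a factor binds there.

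Of the regulators of mitochondrial gene expression, 6 of 18 rose (33.3%) and 4 fell (22.2%), near the 26.3% and 28.2% of all genes tested. The coactivators PPARGC1A (log2 fold change 0.46) and PPARGC1B (0.76), the mitochondrial transcription factor TFAM (0.37) and MYC (0.99) were higher. MYC lies on chromosome 8 amid genes with a median of 0.73. Less the regional median, PPARGC1A was at 0.23, PPARGC1B at 0.98, TFAM at 0.23 and MYC at 0.26. NRF1 was at 26.4, 27.1 and 25.3 CPM in WT and at 22.3, 21.7 and 22.4 CPM in NUAK2-CR, a decrease of 0.25 that was called (-0.25, SE 0.08). GABPA, ESRRA and YY1 were not called. POLRMT, the mitochondrial RNA polymerase, and TEFM, its elongation factor, fell by 0.29 and 0.52 on the log2 scale. NRF1 was at -0.25, POLRMT at -0.43 and TEFM at -0.16 less the regional median.

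Decreases were also called in other nuclear genes of the organelle. Of 75 tested mitochondrial ribosomal proteins, which translate the mitochondrially encoded subunits, 44 fell and 3 rose, with a median log2 fold change of -0.35; MRPS31 was at 49.8% and MRPS7 at 50.9% of its WT mean, while MRPL13 rose by 0.37 and MRPL17 by 0.26 on the log2 scale. Of 18 enzymes of the TCA cycle and pyruvate dehydrogenase, which feed electrons to the chain, 12 fell and none rose (edgeR; DESeq2 and an unadjusted p under 0.05 gave 0 increases too). PDHX fell by 1.25 and IDH3A by 0.91 on the log2 scale. Of 22 import and cristae genes 13 fell and none rose by edgeR, DESeq2 or an unadjusted p under 0.05. The import channel genes TIMM17A (-0.87) and TIMM17B (-0.82) were among those that fell. Called lower were 58.7% of the ribosomal proteins, 66.7% of the TCA list and 59.1% of the import list, against 28.2% of all genes tested. Called higher were 4.0%, 0% and 0%, against 26.3%. Less the regional median, the list medians were -0.31 for ribosomal proteins, -0.35 for the TCA list and -0.22 for the import list. PDHX was then at -0.76, IDH3A at -0.81, MRPS31 at -0.53 and MRPS7 at -0.55. TIMM17A was at -0.45, TIMM17B at -0.46, MRPL13 at -0.19 and MRPL17 at 0.0055.

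Of 57 tested assembly factors, which build the complexes without being part of them, 19 fell (33.3%, near the 28.2% of all genes tested) and 3 rose, with a median of -0.07. COX10, an enzyme in the synthesis of the heme of cytochrome c oxidase, was at 33.6, 32.7 and 37.4 CPM in WT and at 18.3, 16.2 and 14.8 CPM in NUAK2-CR (log2 fold change -1.07, SE 0.10). TACO1, which activates translation of MT-CO1, fell by 0.82, and in complex V TMEM242 fell by 1.13 and ATPAF2 by 0.81. In complex I NDUFAF8 fell by 0.78 and NDUFAF7 by 0.60 and NDUFAF5 rose by 0.33, and in complex III TTC19 fell by 0.59. PET100 (0.36) and LRPPRC (0.24), both needed for complex IV, were higher. Less the regional median, COX10 was at -0.69, TACO1 at -0.48, TMEM242 at -1.15 and ATPAF2 at -0.44. NDUFAF8 was then at -0.43, NDUFAF7 at -0.63 and TTC19 at -0.21. NDUFAF5 was at 0.12, PET100 at 0.32 and LRPPRC at 0.18. None of the 4 assembly factors of complex II was called by edgeR or DESeq2, and at an unadjusted p under 0.05 1 was higher and 1 lower.

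Of the 6 subunits and partners that the symbol rule leaves out, ATP5IF1, the inhibitor of ATP hydrolysis by the ATP synthase, fell from 79.1, 90.1 and 100.1 CPM to 60.6, 55.6 and 50.9 CPM (log2 fold change -0.69, SE 0.09, edgeR adjusted p = 5.60e-05). COX7A2L, which joins complexes III and IV into supercomplexes, rose from 44.7, 51.6 and 54.6 CPM to 56.5, 61.6 and 61.6 CPM (log2 fold change 0.25, SE 0.08, edgeR adjusted p = 0.0221). ATP5IF1 was at -0.21 and COX7A2L at 0.18 less the regional median. COX4I1 (-0.12), NDUFAB1 (-0.15) and CYCS (0.09) were not called, and COX4I2 had no count. Without WT replicate 1, COX4I1 and NDUFAB1 were called lower too, so that 3 of the 5 tested were lower.

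Of the tested members, 24 overlap another annotated gene, of which 13 fell and 2 rose, and 52 overlap none, of which 29 fell. NDUFS6 overlaps MRPL36, so part of its count is uncertain, while SDHB, UQCRC1, ATP5MC1 and ATP5PB overlap no other gene. The 2 members that rose, NDUFB6 and NDUFA4L2, overlap SMIM27 and SHMT2.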

How the data were processed

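Bulk RNA-sequencing libraries of U251 cells, 3 WT and 3 NUAK2-CR, were grouped by their sample labels. The authors trimmed reads (Trimmomatic), mapped them to hg38 (HISAT2) and deposited the raw counts per gene made by featureCounts, from a stranded Illumina kit for polyadenylated RNA; counting used default parameters, which ignore strand, and the annotation is not given in the sources used here. NCBI gene identifiers were matched to RefSeq symbols for 27745 of 28395 genes, and members by RefSeq or GENCODE symbol. Members and gene lists were chosen with earlier results of these data known.

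Counts were tested in R 4.3.3 with edgeR 4.0.16 (filterByExpr, TMM, glmQLFit, glmQLFTest, prior count 0.125, Benjamini-Hochberg adjustment over 14873 genes; common biological coefficient of variation 0.101); DESeq2 1.42.0, the study's tool, was an alternative. The SE given with an edgeR fold change is its absolute value divided by the square root of the F statistic of the test. The steps were tested on simulated data. Regional medians used the 100 nearest tested genes, and a lowess trend (span 0.5) used the length of the reference transcript in GENCODE v44, which includes long untranslated ends for some genes. Other alternatives were RLE and library-size scaling, 2 filters, a replicate block, a prior count of 2, a log2 threshold of 0.5, single libraries left out and, chosen after seeing the data, the table without mitochondrially encoded genes and the length trend without WT replicate 1.

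Named genes were NUAK2, the 3 called members with the largest increase and decrease in each complex, preset core subunits, paralogs, excluded subunits and regulators, and the 2 called genes with the largest increase and decrease in each other list; further members were named to complete their complex after their values were seen. The values of 1 member are not reported here, though it enters the counts and medians. Floors of 3 counts and depth cover counting error only. Python 3.11.15, pandas 2.3.3, statsmodels 0.14.6 and matplotlib 3.10.9 made the tables and figures.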

Additional observations from a re-analysis of the deposited data

How the results depend on the processing

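The number of members called lower, 42, was 42 with RLE or library-size scaling, 40 with DESeq2, 47 without a filter and 45 with the replicate block, and 33 to 53 with single libraries left out; 33 came from leaving out NUAK2-CR replicate 1 and 53 from leaving out WT replicate 1. With a log2 fold change over 0.5 required, 17 were lower and 1 higher in all, 7 and 0 in complex I, 3 lower in complex III, 2 in complex IV and 3 in complex V. DESeq2 called 3 lower in complex IV and 4 of the mitochondrially encoded proteins higher. Leaving out single libraries gave 1 to 4 members higher in all, 0 to 2 in complex I and 0 to 1 in complex III, and 3 to 8 lower in complex IV. The cause of these differences was not tested.

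The members' median of -0.27 became -0.19 less the transcript length trend. In complex I the median was -0.32 less the regional median, -0.18 less the length trend and -0.20 less that trend without WT replicate 1. In complex II these were -0.17, -0.40 and -0.41, and -0.50 to -0.41 with single libraries left out. Less the regional median, NDUFB6 was at -0.0397, MRPL13 at -0.19, CYC1 at -0.76, CYCS at -0.16 and GABPA at -0.0084, all of opposite sign, as was YY1 less the length trend (-0.0111). NDUFS5, called lower, was also of opposite sign less the regional median (0.15). CYC1, near 0, was at -0.0042 without a filter, -0.0002 with 10 counts required in every library and -0.0782 to 0.0575 with single libraries left out, and NDUFA4 at -0.18 to 0.0282. Of the values of named genes under these alternatives, 898 kept their sign and their side of the threshold, 23 lost the call, 6 gained one and 13 changed sign.

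Same-numbered WT and NUAK2-CR libraries deviated together little (correlations 0.04, -0.04 and 0.05), so that the numbers do not pair the samples; with the replicate block, 45 members were lower and 2 higher. At these depths NDUFA4L2, ATP5F1E and UQCRHL have too few counts for a precise fold change.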
